A study of Bos taurus with 12 samples.

Results

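Zinc finger proteins fold short stretches of their chain around a zinc ion, and these fingers grip nucleic acids. In most of them the fingers are built from paired cysteines and histidines and read DNA, often beside a second domain (KRAB, BTB or SCAN) that recruits corepressors or partner proteins, and the family is one of the largest groups of transcription factors in mammals. A smaller group, the CCCH type, binds AU-rich stretches of messenger RNA and speeds its decay. Cytosine methylation at CpG dinucleotides is most often low in CpG islands near active promoters and high in gene bodies.

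CpG methylation at genes whose symbol begins with ZNF, ZFP, ZSCAN, ZKSCAN, ZBTB, ZFHX, ZFPM or ZEB was examined in cultured bovine skin fibroblasts of 2 ages. Members were the positions of the authors' list of differentially methylated CpGs (unadjusted P below 0.05) whose promoter, exon or intron annotation held such a symbol. They were 86 positions in 34 genes, out of 14094 listed positions, of which 4414 had a gene annotation, and 838705 tested positions. Because the list was made from the young against old contrast, the differences between ages below are a description of its entries and carry no test. For the same reason the counts of called positions are read only beside the share over all tested positions, 1.68% in both directions, 1.11% for more methylated in young and 0.566% for more methylated in old.

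Reduced representation bisulfite sequencing (RRBS), which enriches CpG-rich fragments and leaves methylated cytosines unconverted, was run on genomic DNA of 12 primary dermal fibroblast cultures. Holstein heifers at 5 months of age gave 6 young cultures (1A to 6A), and the same 6 heifers at 16 months gave 6 old cultures (1B to 6B). All were at passage 6, untreated, and grown side by side from frozen stock, with 1 culture for each animal and age, and the study had chosen animals whose cytokine response to lipopolysaccharide was of middle rank. Age therefore cannot be told apart from the date of biopsy and the time in storage, and no expression markers of the cell type were measured here. The methylation ratio of a position is the share of its reads with an unconverted C, given below in percent, and differences are young minus old in percentage points with the SD over 6 animals. Tested positions carried between 19007741 and 31643295 read counts per culture. At the zinc finger positions the median coverage per culture was 12.3 ± 1.37 reads at the younger age and 11.6 ± 1.96 at the older (SD over 6 cultures). The difference of 0.75 reads (SD 3.19) was positive in 3 of 6 animals (p = 0.63 by an exact permutation over the 64 sign patterns, two-sided, with a smallest possible p of 0.03125).

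More methylation in young cultures was listed at 54 of the 86 positions (26 genes), and more methylation in old cultures at 32 (15 genes). At the young-higher positions the median ratio was 49.2% in young and 23.2% in old cultures, with differences from 10.2 to 41.8 points. The old-higher positions had medians of 48.6% in young and 75.2% in old cultures, with differences from -10.5 to -47.7 points. The share higher in young was 62.8% (Wilson 95% interval 52.2 to 72.3%, counting error only), beside 67.7% of the 4328 other listed positions with a gene annotation. Genes divided into 19 with only young-higher positions, 8 with only old-higher positions and 7 with both, and these 7 genes held 41 of the 86 positions.

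**Figure D1:**
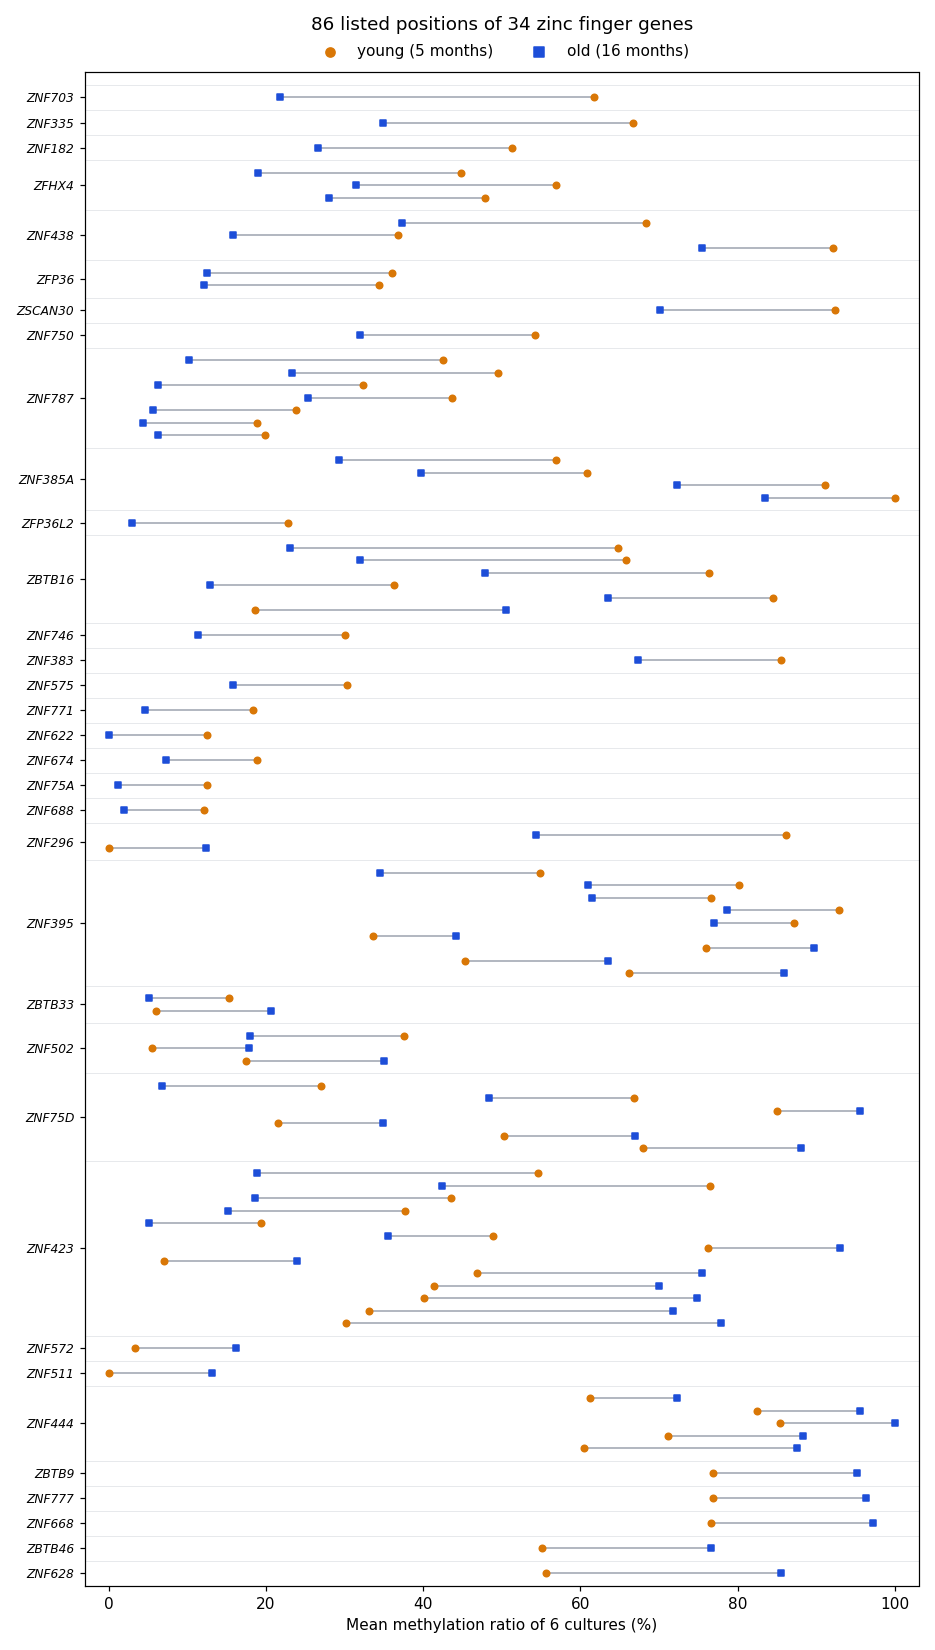
Mean methylation ratio (x axis, percent) of the 6 young cultures (orange circles) and the 6 old cultures (blue squares) at each of the 86 listed positions, grouped by gene on the y axis, with a grey line joining the ages. In 19 genes all circles lie to the right of the squares, in 8 genes, most of them at the bottom, all lie to the left, and ZBTB16, ZBTB33, ZNF296, ZNF395, ZNF423, ZNF502 and ZNF75D hold both.

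All 6 animals had the same direction at 39 of the 86 positions (45.3%, beside 42.8% of all listed positions and 1.09% of all tested positions). Each animal by itself followed the mean direction at 74 to 81 of the positions, animal 4 at the most. The list was made from the young against old contrast, which favours separated groups by construction. The 6 young and 6 old ratios did not overlap at 7 positions, where 0.123% of all tested positions had such a separation. These were 1 position each of ZNF385A, ZNF703, ZNF787 and ZBTB33 and 3 positions of ZNF75D. The median size of the difference was 19.5 points at zinc finger positions and 17.8 points over all listed positions. Every culture had at least 10 reads at 11 of the 86 positions, and among all positions so covered 1.06% were called by the paired test of the methods.

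By annotation, 23 positions lay in promoters (from 2.5 kb before to 1.0 kb after a transcription start), 23 in exons and 51 in introns, with 11 counted under 2 of these classes. Promoter positions had a median level of 13.3% and were young-higher in 16 of 23 cases (69.6%, beside 67.4% of the other listed promoter positions). Exon positions had a median level of 39.0% and were young-higher in 17 of 23 (73.9%, beside 68.0% of the others in exons). Intron positions stood at 54.4% and divided nearly evenly, 27 young-higher and 24 old-higher, so that 52.9% (Wilson 95% interval 39.5 to 65.9%) were young-higher, beside 66.9% of the 2838 other listed intron positions. Neighbouring positions share reads, and 22 of the 51 intron positions belong to ZNF423 and ZNF395, so these intervals are too narrow. CpG islands held 24 of the positions (27.9%, beside 32.0% of the other annotated positions), 15 young-higher and 9 old-higher (62.5% young-higher, beside 69.1%).

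**Figure D2:**
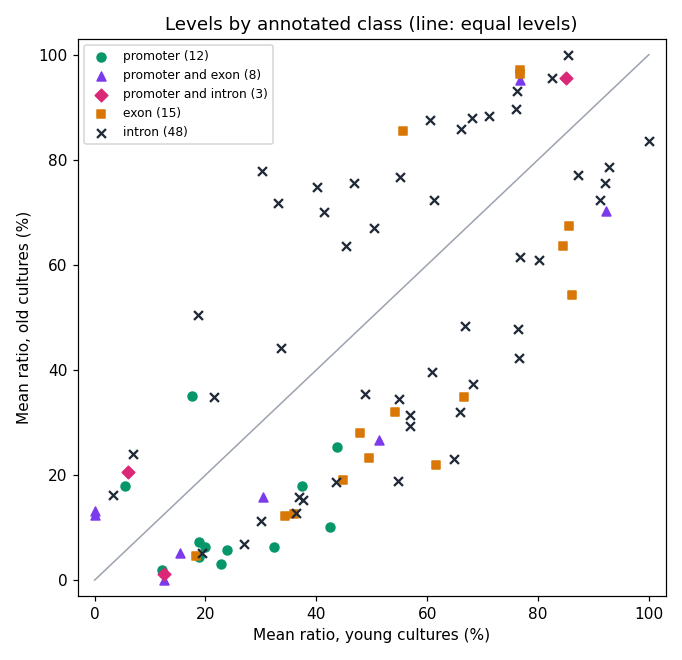
Mean ratio of the 6 old cultures (y axis, percent) against that of the 6 young cultures (x axis, percent) for each of the 86 positions, with a marker for each annotated class and the diagonal for equal levels. Promoter positions (green circles) lie in the lower left, 10 of the 12 under the diagonal, whereas intron positions (black crosses) spread over the whole range on both sides, 26 under it and 22 above it.

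The genes of the RNA-binding CCCH type held 3 listed positions (2 CpGs), all young-higher, as were 67.7% of the 4328 other listed positions with a gene annotation. So few positions cannot describe the type. ZFP36 encodes tristetraprolin, which binds AU-rich elements of cytokine messenger RNAs such as that of TNF and promotes their decay. Both strands of 1 CpG in a ZFP36 exon within a CpG island (chromosome 18, positions 49374200 and 49374201) were listed. On the + strand the ratios of animals 1 to 6 were 20, 46, 35, 40, 25 and 40% in young and 0, 17, 0, 20, 25 and 11% in old cultures, a difference of 22.2 points (SD 12.3). Animal 5 had the same ratio at both ages, and young cultures 1A and 5A lay within the range of the old ones. On the - strand the young cultures had 0, 67, 40, 29, 50 and 30% and the old 0, 10, 25, 11, 12 and 17%, a difference of 23.5 points (SD 20.5). Here animal 1 was unmethylated at both ages and the other 5 were higher in young. All 6 tested but unlisted positions within 100 bp were also higher in young cultures.

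ZFP36L2 encodes a relative of tristetraprolin with the same kind of finger. Its listed promoter position (chromosome 11, 25588958) had ratios of 33, 0, 33, 8, 25 and 38% in young and 0, 0, 8, 0, 0 and 10% in old cultures, a difference of 19.8 points (SD 12.9). Animal 2 had 0 at both ages and the other 5 animals were higher in young, and the 4 unlisted neighbours within 100 bp had the same direction. The opposite strand of this CpG differed by 5.0 points and the merged CpG by 12.8 points.

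The BTB-domain genes, whose proteins pair through that domain and mostly repress transcription, held 10 positions, 6 young-higher and 4 old-higher. ZBTB16 encodes PLZF, a repressor best known from leukaemia and from innate-like lymphocytes, and is induced by glucocorticoids. It had 6 listed positions spread over 178506 bp of chromosome 15, 5 of them young-higher. At its intron position 24948668 the young cultures had 60, 50, 100, 60, 36 and 83% and the old 25, 40, 17, 9, 33 and 14%. The difference of 41.8 points (SD 31.9) was the largest young-higher one among the zinc finger positions, all 6 animals were higher in young, and the groups overlapped through young culture 5A and old culture 2B. The partner strand (24948667) was also listed, at 65.8% in young and 32.0% in old. The exon position 24920801 and the intron positions 24986937 and 25038266 were higher in young by 21.0 to 28.5 points, in 6 of 6 animals each. The last position of the gene, 25099306, had the reverse pattern, from 18.7% in young to 50.5% in old, in 6 of 6 animals. Its partner strand differed by only -1.67 points, and with the strands merged the difference was -10.4 points. In the 178506 bp between the outer positions 38 positions were tested, and of the 32 unlisted ones 19 were higher in young and 13 in old.

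ZBTB33 encodes Kaiso, a repressor that can bind methylated CpGs. In its CpG island promoter on chromosome X, position 5050753 was at 6.00 ± 4.86% in young and 20.7 ± 6.35% in old cultures, with no overlap between the groups. At 5050858, 105 bp away on the same strand, the levels were 15.3% in young and 5.17% in old, a difference of 10.2 points, so that these neighbours had opposite directions. With the strands of the latter CpG merged its difference was 4.31 points. ZBTB46, a transcription factor gene used as a marker of classical dendritic cells, and ZBTB9 had 1 old-higher position each. At the ZBTB46 intron position (chromosome 13, 54480191) the ratios were 67, 43, 71, 50, 50 and 50% in young and 70, 80, 80, 100, 50 and 80% in old cultures, a difference of -21.5 points on a mean coverage of 7.25 reads. The groups overlapped, and animal 5 had 50% at both ages. At ZBTB9 (promoter and exon, chromosome 23, 7569705) the means were 76.8% in young and 95.2% in old.

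ZFHX4, whose protein joins zinc fingers to homeodomains, had 3 listed positions on chromosome 14, all young-higher, and no ZEB or ZFPM gene was listed. The largest difference was at exon position 42165589, where young cultures had 43, 55, 38, 50, 50 and 33% and old cultures 38, 0, 33, 20, 23 and 0%. All 6 animals were higher in young, by 25.8 points (SD 18.9) on average. The other strand of that CpG differed by 19.8 points in the same direction, and intron position 42047304 by 25.3 points (SD 9.22). No other position was tested between them, so ZFHX4 could not be compared with its surroundings. ZSCAN30 was the only member with a ZSCAN or ZKSCAN symbol. It had 1 position in its promoter and exon on chromosome 24, at 92.3% in young and 70.2% in old. Genes were grouped by symbol alone, and the ZNF genes below were not checked for a SCAN domain, so ZSCAN30 does not stand for that type.

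The remaining 69 positions belonged to ZNF genes, 41 young-higher and 28 old-higher. ZNF423, a many-fingered partner of EBF and SMAD proteins that is known for its part in the commitment of preadipocytes, held the most, with 13 intron positions spread over 344472 bp of chromosome 18. Of these, 7 were old-higher and 6 young-higher. A group of 5 old-higher positions (3 CpGs) lay within 61 bp, from 18048974 to 18049035. The mean ratio over these 5 positions ranged from 24.0 to 69.6% (median 32.5%) in young cultures and from 67.6 to 78.0% (median 76.4%) in old cultures. All 6 animals were higher in old, by 35.7 points (SD 16.9). Young culture 2A, at 69.6%, reached into the range of the old cultures and the other 5 young cultures did not.

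The position with the largest difference of all members, 18048974, belonged to this ZNF423 group. Its ratios were 29, 89, 19, 0, 0 and 44% in young and 100, 67, 75, 83, 80 and 62% in old cultures, a difference of -47.7 points (SD 41.6). In animal 2 the order was reversed, and the coverage was low, with a mean of 8.0 reads and a lowest value of 5. The partner strand, 18048975, differed by -28.7 points (SD 12.5) in the same direction, in 6 of 6 animals. A further listed position nearby, 18048620, lay in a CpG island and stood at 76.2% in young and 93.0% in old. It had no culture under 10 reads, but its coverage was even in every culture, and overlapping mates were counted separately. All 9 unlisted positions tested within 1000 bp were also higher in old cultures, with a median difference of -11.7 points.

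The other listed positions of ZNF423 were scattered and mostly had the reverse direction. At 18207330 the young cultures had 45, 38, 57, 63, 54 and 71% and the old cultures 30, 12, 18, 15, 38 and 0%. All 6 animals were higher in young, by 35.8 points (SD 21.5), and the groups met only at 38%, in 2A and 5B. Positions 18084689 and, on both strands of 1 CpG, 18249531 and 18249532 were higher in young by 34.2, 24.8 and 22.5 points. Positions 18045504 and 18389975 were higher in young by 13.3 and 14.2 points, whereas 18370424 was higher in old (-17 points). Over the whole stretch, the 117 unlisted tested positions divided into 51 higher in young, 57 higher in old and 9 equal.

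ZNF787 had 7 positions on chromosome 18, all young-higher. Of these, 6 lay within 96 bp of its promoter, from 63697293 to 63697389, on a stretch without a CpG island annotation. Their mean ratio was 30.2 ± 2.10% in young cultures (27.5 to 33.5%) and 9.69 ± 4.18% in old cultures (4.17 to 14.2%). The groups of this mean did not overlap, and the difference was 20.5 points (SD 3.46, 6 of 6 animals). This SD is of a mean over more positions than in the ZNF423, ZNF438 and ZNF385A groups, so their spreads cannot be compared. Single positions of the ZNF787 group had SDs from 7.81 to 14.8 points. The opposite strand of 63697333 differed by -0.333 points and the merged CpG by 6.26 points. For 63697337 these values were 11.3 and 15.7 points. At 63697351 the young cultures had 40, 36, 46, 43, 50 and 40% and the old 19, 11, 8, 11, 12 and 0%, a difference of 32.3 points (SD 7.81) with no overlap. Of the 16 unlisted positions within 1000 bp, 13 were higher in young, 2 higher in old and 1 equal, with a median difference of 4.33 points. The seventh position, 63687688 in an exon, differed by 26.2 points, its partner strand by 1.83 points, and the merged CpG by 15.9 points.

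**Figure D3:**
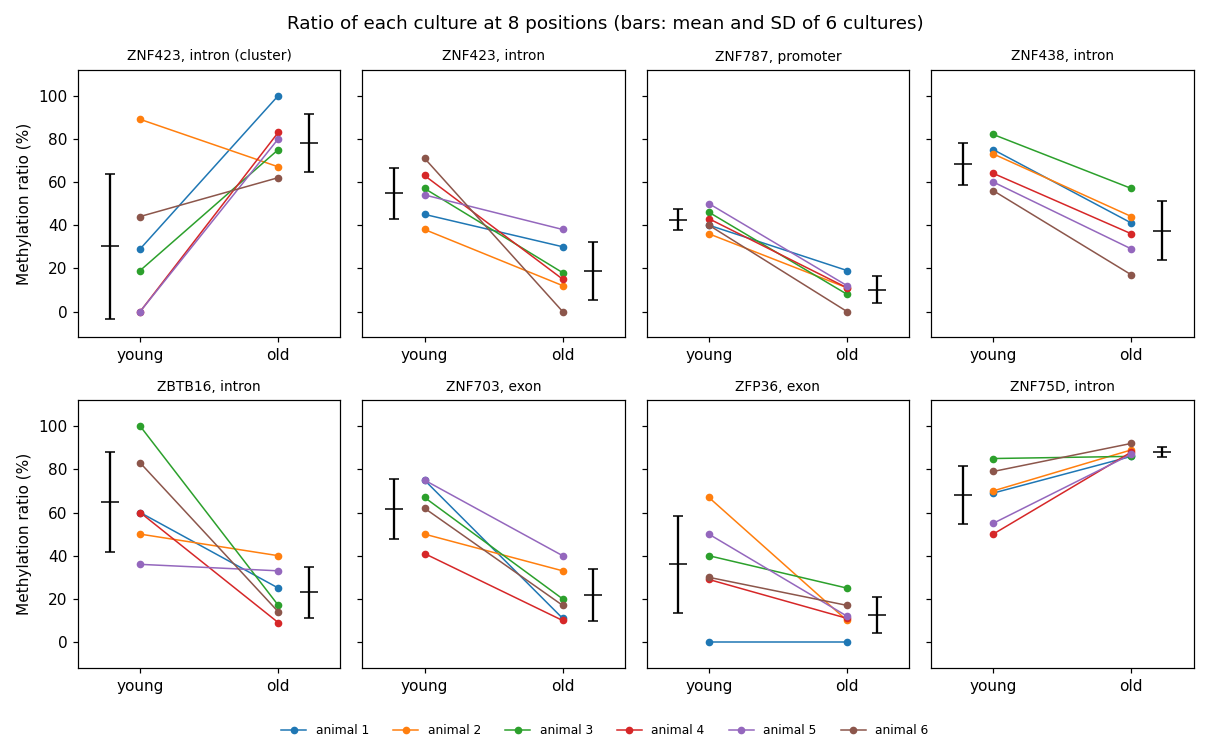
Methylation ratio (y axis, percent) of each young and old culture at 8 listed positions, with a line for each of the 6 animals and black bars for the mean and SD of the 6 cultures. The lines of ZNF787 and ZNF438 run nearly parallel, the ZNF423 group position has 1 line of reverse slope (animal 2), and the ZFP36 position has 1 line at 0 (animal 1).

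Close groups of young-higher positions were also found in introns of ZNF438, a poorly known repressor gene, and ZNF385A, whose product steers p53 between its targets. The 3 positions of ZNF438 (chromosome 13, 34737023 to 34737115) had a mean of 65.8 ± 8.55% in young and 42.9 ± 12.5% in old cultures, with all 6 animals higher in young, by 22.9 points (SD 8.33). At 34737089 the young cultures had 75, 73, 82, 64, 60 and 56% and the old 41, 44, 57, 36, 29 and 17%. The difference of 31.0 points varied little between animals (SD 4.94), although the groups overlapped through 6A and 3B, and 6 of the 7 unlisted positions within 1000 bp were higher in young.

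At ZNF385A (chromosome 5) 3 positions within 77 bp had means of 72.6 ± 11.2% in young and 50.8 ± 6.2% in old cultures, again higher in young in 6 of 6 animals, by 21.7 points (SD 9.32). Its largest difference, 27.5 points, was at 25808208, with 43, 54, 100, 44, 50 and 50% in young and 36, 25, 45, 12, 33 and 25% in old. Young culture 3A, at 100%, stood far above the others, and 1A and 4A overlapped the highest old culture. At 25808224, 16 bp away, all 6 young cultures had 100% and the old cultures between 75 and 88%. The remaining position, 25814655, was higher in young by 18.8 points.

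**Figure D4:**
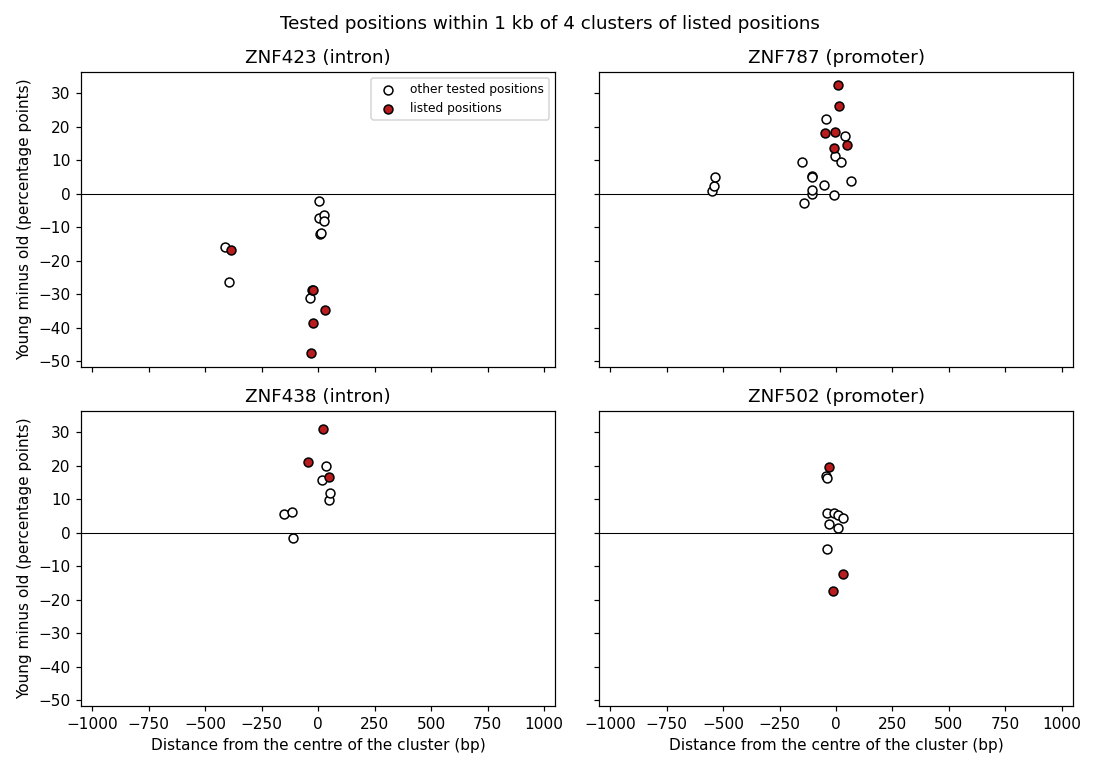
Young minus old difference (y axis, percentage points) of all tested positions within 1000 bp of the centre of 4 groups of listed positions (x axis, distance in bp); filled points are listed and open points are not. In ZNF423 all 15 points lie under 0, in ZNF787 19 of 22 lie above it, in ZNF438 9 of 10 lie above it, and in ZNF502 listed points lie on both sides.

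Other ZNF genes mixed directions over short distances. In the ZNF502 promoter (chromosome 22) position 16512112 was young-higher, with ratios of 25, 21, 50, 62, 17 and 50% in young and 17, 20, 22, 21, 11 and 17% in old, a difference of 19.5 points in 6 of 6 animals. Only 16 bp further on the same strand, 16512128 was old-higher in 6 of 6 animals, at 17.5% in young and 35.0% in old, and 16512172 was old-higher at 5.50 and 17.8%, a difference that was -4.87 points with its strands merged. Of the 9 unlisted positions tested there, 8 were higher in young. ZNF296 had an exon position (chromosome 18, 53155235) at 86.2% in young and 54.3% in old, and 2806 bp away a promoter and exon position (53158041) at 0 in all young cultures and 12.3 ± 7.71% in old.

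ZNF395, the gene of a hypoxia-inducible transcription factor, had 9 intron positions over 44412 bp of chromosome 8, 5 young-higher and 4 old-higher. None of its differences exceeded 20.3 points. At the largest, 10191832, the young cultures had 62, 79, 55, 48, 41 and 44% and the old 44, 42, 19, 25, 50 and 27%. Animal 5 had the reverse order there and the groups overlapped. At 10199827 the ratio was 66.2% in young and 85.8% in old, in 6 of 6 animals, and 30 bp away on the same strand 10199857 had 92.8% in young and 78.7% in old, a difference that was 1.85 points with its strands merged. The gene was densely covered, with 223 unlisted tested positions in the stretch, 128 higher in young and 89 higher in old with a mean difference of 0.0336 points.

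ZNF75D, a KRAB zinc finger gene on chromosome X, had 6 positions over 109481 bp, 4 old-higher and 2 young-higher, and 3 of them separated the groups. At intron position 18907049 the young cultures had 40, 17, 33, 29, 14 and 29% and the old 11, 12, 0, 12, 0 and 6%, a difference of 20.2 points without overlap. At 18960610 the old cultures lay between 32 and 38% and the young between 15 and 31%. At 18981892 the old cultures lay between 86 and 92% and the young between 50 and 85%, a difference of -20.0 points (SD 13.3). The closest positions of opposite direction, 18980500 and 18981892, were 1392 bp apart. The 332 unlisted tested positions of the stretch had a mean difference of -0.0120 points.

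ZNF444 on chromosome 18 had 5 intron positions, all old-higher, with differences from -11.2 to -27.0 points. At 64014953 the young cultures had 80, 62, 33, 75, 33 and 80% and the old 80, 100, 78, 100, 67 and 100%. Animal 1 had 80% at both ages and the other 5 were higher in old. The listed positions do not belong to ZNF444 alone: 4 of them were also annotated to an intron of ZIM2, a zinc finger gene of the imprinted PEG3 region, and 1 to LOC768229. Between them the stretch of 305571 bp held 296 unlisted tested positions with a median level of 1.42% at both ages, 104 higher in young, 111 higher in old and 81 equal. At the first listed position, 63763201 (-17.2 points), the partner strand was higher in young by 5.17 points and the merged CpG differed by -7.66 points. All 9 unlisted neighbours within 100 bp were higher in young, and within 1000 bp 11 of 12 were higher in young. The ZNF787 positions, all young-higher, ended 65812 bp before the first of these.

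Of the genes with 1 listed position, ZNF703, a repressor gene known from luminal breast cancer, had the largest young-higher difference. At its exon position in a CpG island (chromosome 27, 32685587) the young cultures had 75, 50, 67, 41, 75 and 62% and the old 11, 33, 20, 10, 40 and 17%. The difference was 39.8 points (SD 16.0) in 6 of 6 animals, and the lowest young culture (41%) lay just above the highest old culture (40%). ZNF335, a chromatin regulator gene needed in neural progenitors, had 57, 36, 100, 78, 69 and 60% in young and 15, 50, 57, 40, 14 and 33% in old at an exon position (chromosome 13, 75418294). It was higher in young by 31.8 points (SD 24.2), with animal 2 reversed. The X-linked gene ZNF182 had 71, 55, 67, 0, 71 and 44% in young and 43, 17, 50, 0, 33 and 17% in old (promoter and exon, 92807941), with animal 4 at 0 at both ages. ZNF750, an activator of epidermal differentiation genes, and ZSCAN30 were each higher in young by 22.2 points, and the ZNF750 position was also annotated to TBCD.

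The largest old-higher difference of a gene with 1 position was at ZNF628 (exon, chromosome 18, 62476130), which was also annotated to NAT14. The ratios were 46, 83, 25, 67, 42 and 71% in young and 83, 100, 100, 83, 80 and 67% in old, a difference of -29.8 points (SD 27.1) with animal 6 reversed. ZNF668 (exon, chromosome 25, 27432370) had 50, 80, 100, 75, 88 and 67% in young, and 100% in all old cultures but 2B, which had 83%. Young culture 3A also had 100%, so the groups overlapped. ZNF777 (-19.5 points, 6 of 6 animals), ZNF511 (-13.2 points, also annotated to SORCS3) and ZBTB9 and ZBTB46 above complete the 6 largest. ZNF777 and ZNF746, the gene of the parkin substrate PARIS, lay 68361 bp apart on chromosome 4 and differed in direction, since ZNF746 was higher in young by 18.7 points.

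The 9 genes with 1 position outside these (ZNF383, ZNF572, ZNF575, ZNF622, ZNF674, ZNF688, ZNF75A, ZNF771 and ZNF746) had differences of 10.2 to 18.7 points in size. Of these, 8 were young-higher and only ZNF572 old-higher. This split follows from taking out the 6 largest per direction first, which left no other old-higher gene. By chromosome, 32 positions of 8 genes (37.2%) were on chromosome 18, which held 4.58% of all listed and 4.30% of all tested positions. ZNF423, ZNF787 and ZNF444 gave most of these 32 positions. Of all tested positions on chromosome 18, 1.79% were listed, beside 1.68% over all chromosomes. How many tested positions of zinc finger genes lie on chromosome 18 was not counted. Chromosome X held 10 positions of 4 genes (11.6%), 5 in each direction, beside 4.43% of all listed and 2.65% of all tested positions. Of all tested positions on chromosome X, 2.81% were listed, so it was over-represented in the whole list too.

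The opposite strand of the same CpG gives a further reading from other reads. It was tested for 34 of the 86 positions, and 12 of these partners (6 CpGs) were themselves listed, the strands of each CpG in the same direction. The other 22 partners had the direction of the listed strand in 12 cases and the reverse in 10. The mean difference along the listed direction was 16.8 points on the listed strands and 1.82 points on these partners. Merging the strands lowered the size of the difference by more than 1.5 times at 16 of these 22 CpGs. It turned 1 around, the ZNF395 position 10192328 (from -10.5 to 2.01 points). There the listed strand had a mean of 14.6 reads and its partner 646, so the merged value is mostly that of the partner (2.33 points). At positions described above merging left 7.66 points at ZNF385A 25814655, 7.0 points at ZNF502 16512112, 12.3 points at ZNF75D 18907049 and 10.7 points at ZNF750. It left 10.3 points at ZNF395 10191832, where the partner also had more reads (68.2 against 17.8). Within 100 bp of the listed positions lay 505 tested but unlisted neighbours, of which 269 had the same direction, 194 the opposite one and 42 no difference. With the positions of no difference left out, the share in the same direction was 58.1%, beside 61.9% around all listed positions, and the median difference along the listed direction was 0.667 points. Since these readings are of the same contrast and animals as the list, they are given without a test.

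**Figure D5:**
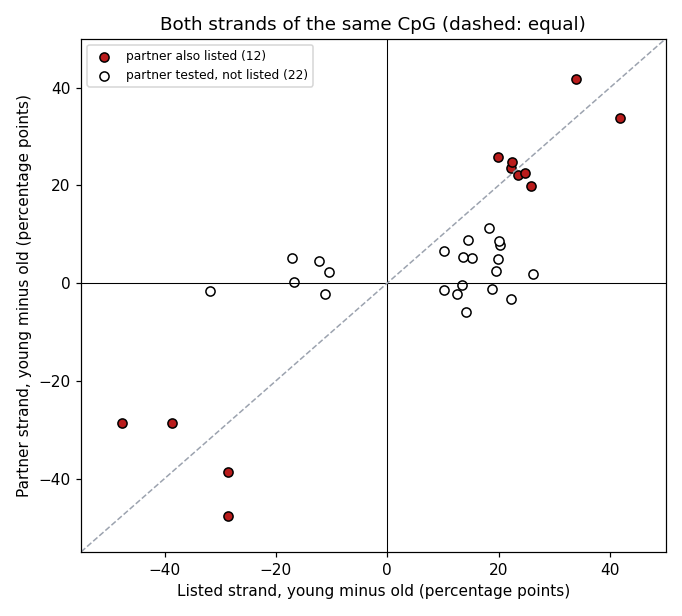
Young minus old difference of the partner strand (y axis, percentage points) against that of the listed strand (x axis, percentage points) for the 34 positions whose partner was tested, with the dashed line for equal values. The 12 points with a listed partner (filled) lie at the lower left and upper right, and the 22 others (open) lie between -6.0 and 11.3 points on the y axis.

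Closest to the limit of the list, on its inner side, lay ZBTB46 with -21.5 points, ZNF688 with 10.2 points and ZNF383 with 18.2 points, and recomputed from rounded ratios ZNF383 alone of the 86 positions missed the threshold of 0.05. Just outside it lay position 52073689 beside ZNF575 with 11.8 points and, beside the ZNF787 exon position, 63687595 with 26.8 points and 63687690 with -16.5 points. No position passed Benjamini-Hochberg adjustment over all tested positions, where 24094 had an unadjusted P below 0.05, and limma with the animal as a block called 0 as well, with 28425 unadjusted. A test without the pairing called 1, which was no member, with 24161 unadjusted.

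Genes for zinc finger proteins that carry other names were counted from a list of 109 genes, among them the KLF, SP, GLI, ZIC, IKZF and PRDM families. The authors' list held 54 positions in 24 of them, 31 young-higher (57.4%) and 23 old-higher, 4 being the ZIM2 positions shared with ZNF444. Among those that differed by at least 25 points the young-higher share was 27.3%, but these few positions included all 7 of OSR2, which were old-higher. KLF4, a pluripotency and epithelial barrier factor, had 6 positions and PRDM1, the gene of the repressor Blimp-1, had 4, all young-higher. The PRDM1 positions lay close together (44360054 to 44360066), with old means from 0 to 2.0%, and only 4 of 6 animals were higher in young at each. Those of KLF4 ran from 98845910 to 98846540. Neighbouring positions share reads, so such counts do not stand for independent positions. OSR2, a developmental regulator, had 7, all old-higher, with differences from -29.7 to -49.0 points.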

How the data were processed

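RRBS libraries were made from DNA cut with MspI (the methods also name TaqαI, the labels do not) and sequenced as paired-end reads. Per the labels and the methods, the authors' pipeline used CASAVA, FastQC 0.11.1, Trim Galore 0.3.7 and Bismark 0.13.1 on bosTau8, discarded reads without a unique alignment and let both mates of a pair count where they overlap. The ratio the authors deposited for each position, strand and culture is a fraction with 2 decimals, and its coverage column holds the count of reads behind it, at least 5 in every culture. The authors' columns of differences and P values were not used beyond the list of positions that defines the members.

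Differences between ages were recomputed from the ratios, and the paired test of the methods (unadjusted P below 0.05, difference of at least 0.10) was run over all 838705 positions for the background shares. Positions count from 1 on bosTau8. The column letters A and B were read as young and old from the study's legend. Same-numbered cultures were taken as 1 animal from the sample titles and the study. Their deviations from the age means correlated with a median of 0.0435 over all positions (-0.00240 to 0.0899), and between animals with -0.0133. The latter value is tied to the former, since deviations cancel out within an age, so these correlations do not establish the pairing. The 34 symbols all matched RefSeq (ARS-UCD2.0, names only), where 395 protein-coding genes carry these prefixes. Members and lists were chosen with earlier results of these data known. Named genes were those with at least 2 listed positions and the 6 largest differences per direction among genes with 1. All CCCH, BTB, homeodomain and SCAN genes, as grouped by symbol, were named as well. ZNF746, the smaller differences at genes with 1 position, and the genes outside the name rule were added after their values were seen. The planned search for finger patterns in proteins was not run. Intervals are Wilson 95% intervals and cover counting error only.

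On 20000 simulated positions with 200 changed by 40 points, the paired test recovered 95.0% and called 0.869% of the others, limma 95.5 and 1.04%, the unpaired test 98.0 and 1.10%, and the exact sign-flip test 87.0 and 0.414%. The simulated ratios varied by read sampling alone, without differences between animals, and the median difference at the zinc finger positions was smaller, 19.5 points. These rates therefore check the code and do not give the performance of the tests on these data. Alternatives were other coverage and difference minimums, no pairing, limma, the sign-flip test, merged strands, whole reads and each animal left out. Software was Python 3.11.15, numpy 2.4.6, pandas 2.3.3, scipy 1.17.1, matplotlib 3.10.9, R 4.3.3 and limma 3.58.1.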

Additional observations from a re-analysis of the deposited data

Results flagged for a closer look

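In 13 of 172 groups of 6 cultures (2 ages at 86 positions) 1 culture stood apart by Dixon's criterion. Its rate of about 1 in 20 groups by chance holds for normally distributed values and not for ratios of few reads with many ties. Where all other cultures tie, as in some groups below, any differing culture meets the criterion by construction. The number of flags therefore cannot be compared with that rate. The 13 flags fell on 12 positions of 9 genes, 6 in young and 7 in old cultures. All listed values are methylation ratios in percent.

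In ZBTB16 at 25038266 young culture 4A had 69% and the others 22 to 38%. In ZBTB33 at 5050753 old culture 3B had 33% and the others 17 to 22%. In ZNF385A at 25808208 young culture 3A had 100% and the others 43 to 54%, and the difference of 27.5 points was 22 points without animal 3. In ZNF395 young culture 2A had 76% at 10199857, where the others had 92 to 100%, and old culture 4B had 50% at 10236243, where the others had 88 to 100%.

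At the CpG of ZNF423 at 18249531 and 18249532, young culture 2A had 19% on the + strand (others 43 to 56%) and old culture 2B had 0% on the - strand (others 17 to 21%). In ZNF668 old culture 2B had 83% and all others 100%. In ZNF688 at 26996467 animal 3 stood above the others at both ages, with 38% in 3A (others 0 to 12%) and 12% in 3B (others 0%), and the difference of 10.2 points was 7.0 points without it. In ZNF75A old culture 1B had 7% and the others 0%. In the ZNF787 promoter young culture 2A had 61% at 63697337 (others 36 to 45%) and old culture 4B had 38% at 63697356 (others 0%), where the difference of 26.0 points was 30.0 points without animal 4.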

How the results depend on the processing

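The paired test recomputed from rounded ratios called 85 of the 86 positions, 62.4% of them young-higher. Without the pairing (no replicate block) it called 72, of which 59.7% were young-higher, and over all tested positions 16043 in place of 14129. Limma with the animal as a block called 86, and over all tested positions 16357. Ratios from whole reads called 86, and 64 CpGs were called with strands merged. Fewer were called with at least 10 reads in every culture (11, 72.7% young-higher) and at least 20 reads (1, so 100% young-higher). A minimum difference of 0.25 left 23 (26.7%, beside 23.2% of all listed positions). The exact sign-flip test called 39, and 1 animal left out 43 to 56 (lowest without animal 4, highest without animal 2). Since the paired test chose the members, related tests call most of them by construction. For whole reads, merged strands, the sign-flip test and left-out animals no share over all tested positions is given, so these counts describe the members only. After Benjamini-Hochberg adjustment 0 of all tested positions passed. Positions with 1 direction in all 6 animals numbered 39, and 2 with at least 10 reads. The depth difference of 0.75 reads became -0.0179 when coverage was divided by the culture's mean (exact sign-flip permutation test, p = 0.438). Among the other zinc finger genes the young-higher share of 57.4% became 27.3% at a minimum difference of 0.25, which left few positions but kept all 7 old-higher ones of OSR2. The partner strand was tested for only 34 of the 86 positions, so merging strands could not change the others beyond rounding. Of the 22 CpGs whose partner was unlisted, 16 shrank by more than the factor given in the results. ZNF395 at 10192328, whose partner strand had far more reads, turned from -10.5 to 2.01 points. By the spread of the differences 82 of the 86 stayed and 3 moved more, but that count includes the positions without a tested partner. The cause of these shifts was not tested, apart from the fewer positions and animals that stricter minimums and left-out animals leave by construction.

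Coverage limits single ratios: 11 of the 86 positions (12.8%, beside 20.3% of all listed) had at least 10 reads in every culture. At 13 (15.1%, beside 16.7%) the coverage was even in all 12 cultures. Among them were 2 of the 3 ZNF502 positions, ZBTB16 at 25099306, ZNF423 at 18048620 and 1 ZNF787 position. Overlapping mates were counted separately.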
